A study of Mus musculus with 5 samples.

Results

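Erythroid cells of the mouse liver were described here as droplet barcodes whose RNA was dominated by the adult haemoglobin genes. A barcode was taken as a member when it had at least 1000 unique molecular identifiers (UMIs, which count captured transcript molecules), at least 500 genes, under 30% mitochondrial UMIs, and at least 30% of its UMIs from Hbb-bs, Hbb-bt, Hba-a1 and Hba-a2 together. The rule found 635 members among 104143 barcodes that passed the other limits. Because globin content chose the members, their high globin share is a description and not a finding, and gene levels are given on counts without these 4 genes.

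The cells came from livers of C57BL/6J mice and were profiled with the 10x v3 droplet kit, with 1 library in each of 5 groups. The groups were unoperated mice at postnatal day 14 (P14), an adult control, and adults taken 24, 48 or 96 h after surgery at 8 weeks of age that removed most of the liver (partial hepatectomy, PHx). Livers were perfused to release their cells, and a kit then removed dead cells. The labels contradict each other on the control. Its title, source and age name an adult control, and it carries no treatment tag, whereas the protocol text counts it among the operated mice. It was used here as the control. The sample description carries lane code 2 for the control and 1 for the other 4 libraries, so whatever lies behind that code and the control state cannot be told apart. Sex and the number of animals behind a library are not in the labels. With 1 library per group no difference between groups can be tested, and the intervals below are 95% intervals that cover counting error only.

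Red cell precursors pass from dividing erythroblasts, which are driven by the transcription factors Gata1 and Klf1 and by erythropoietin, to cells that stop dividing, expel the nucleus and become reticulocytes. Reticulocytes keep haemoglobin mRNA and the mRNAs of a few late genes for a short time, while most other transcripts and the mitochondria are removed. The liver makes red cells in fetal life and hands this role to marrow and spleen around birth, although the adult liver always holds circulating blood. In adult C57BL/6J mice the beta chains of haemoglobin come from the neighbouring genes Hbb-bs and Hbb-bt, and the alpha chains from Hba-a1 and Hba-a2.

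The promoters of the 4 genes that chose the members, of Alas2, the first enzyme of haem synthesis in red cells, and of the division genes Ube2c and Mki67 are shown because the results turn on these genes. Each sequence is the 120 bases before the RefSeq start in GRCm38.p6, and all 7 genes were matched in the RefSeq table by symbol. Capitals mark 5 short motifs on either strand. They are CACCC, the box bound by Klf1 and its relatives, then CCAAT, a general promoter box, and ATATAA, a form of the TATA box. The others are GATAA, the core bound by GATA factors, and TTTGAA, a part of the element that represses division genes outside the cell cycle. Neighbouring matches can overlap or touch.
Hbb-bs, chr7:103827929-103828048, minus strand: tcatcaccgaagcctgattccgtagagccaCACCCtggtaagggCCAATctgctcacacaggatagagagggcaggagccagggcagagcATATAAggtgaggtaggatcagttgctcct
Hbb-bt, chr7:103813924-103814043, minus strand: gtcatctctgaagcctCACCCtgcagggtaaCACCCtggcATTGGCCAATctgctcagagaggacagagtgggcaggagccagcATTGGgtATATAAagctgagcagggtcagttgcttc
Hba-a1, chr11:32283552-32283671, plus strand: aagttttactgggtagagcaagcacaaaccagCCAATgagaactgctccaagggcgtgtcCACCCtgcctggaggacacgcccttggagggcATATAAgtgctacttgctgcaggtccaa
Hba-a2, chr11:32296372-32296491, plus strand: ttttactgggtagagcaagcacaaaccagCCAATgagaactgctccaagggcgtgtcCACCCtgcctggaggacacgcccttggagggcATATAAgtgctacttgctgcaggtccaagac
Alas2, chrX:150547297-150547416, plus strand: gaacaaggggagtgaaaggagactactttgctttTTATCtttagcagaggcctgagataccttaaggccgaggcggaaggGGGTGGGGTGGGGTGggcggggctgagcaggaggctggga
Ube2c, chr2:164769809-164769928, plus strand: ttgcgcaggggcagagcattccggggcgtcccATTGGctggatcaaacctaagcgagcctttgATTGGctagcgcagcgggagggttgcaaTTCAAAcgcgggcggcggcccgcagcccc
Mki67, chr7:135716380-135716499, minus strand: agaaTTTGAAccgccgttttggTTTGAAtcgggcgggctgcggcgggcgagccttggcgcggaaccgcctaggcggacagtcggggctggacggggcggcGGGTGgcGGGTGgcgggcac

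All 4 globin windows held each of the first 3 motifs. The Hbb-bt window held 2 matches of the Klf1 box and 3 of the CCAAT box, against 1 of each in Hbb-bs. Alas2 held 3 matches of the Klf1 box, in a run on the other strand, and the only match of the GATA core among the 7 windows. Ube2c held 2 matches of the CCAAT box and 1 of the division element, and Mki67 held 2 of the Klf1 box and 2 of the division element. Of 32851 promoters of the same length, 31.7% held the Klf1 box, 21.3% the CCAAT box, 4.47% the TATA form, 10.5% the GATA core and 7.12% the division element. The windows of Hba-a1 and Hba-a2 hold the same sequence shifted by 3 bases, and the 6 edits between them (95% identity) come from this shift. Those of Hbb-bs and Hbb-bt differed by 31 edits (74.2% identity). The last 300 bases of the transcripts, where this kit reads, were 89% identical between Hba-a1 and Hba-a2 and 86% identical between Hbb-bs and Hbb-bt, and how reads were assigned within each pair was not tested.

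Members were found in every library. P14 had 14 among 5502 barcodes (0.254%, 0.139% to 0.427%) and the control 298 among 67862 (0.439%, 0.391% to 0.492%). After surgery there were 150 among 10174 in the 24 h library (1.47%, 1.249% to 1.73%), 35 among 4128 in the 48 h library (0.848%, 0.591% to 1.18%) and 138 among 16477 in the 96 h library (0.838%, 0.704% to 0.989%). These shares rest on barcodes that passed fixed limits, not on called cells, and the control had far more such barcodes than any other library. Its plateau droplets, the 40000 barcodes that follow the first 20000 by UMIs and stand here for droplets without a cell, had a median of 1330 UMIs. The plateau medians of P14, 24 h, 48 h and 96 h were 460, 665, 287 and 775 UMIs. In the control, empty droplets thus passed the UMI minimum and entered the denominator. No member barcode was shared between libraries.

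The gene minimum decided how many globin-rich barcodes counted as members at 48 h. With no gene minimum the counts in the order P14, control, 24 h, 48 h, 96 h were 22, 299, 232, 304 and 239, so the order of the libraries changes with it. The 48 h barcodes under 500 genes numbered 269, and had a median of 11079 UMIs, 344 genes and 92.1% globin. The mitochondrial limit removed none of them in any library. Near the globin threshold there were 1, 4, 2, 0 and 1 members between 30% and 35% in the order P14, control, 24 h, 48 h and 96 h, and 0, 4, 3, 0 and 4 barcodes between 25% and 30%.

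The members were mostly globin. Their median globin share was 79.8% at P14, 82.2% in the control and 87.3%, 86.4% and 86.6% at the 3 times after surgery, and the share of single members ran from 31.0% to 91.9%. The median member had 16091.5, 10299.5, 10430.5, 12846 and 8844 UMIs from P14 through the control to 96 h. After removal of the globins it had 2555.5, 1772, 1271.5, 1731 and 1186.5 UMIs in the same order, from 904.5 genes at P14, 871 in the control and about 600 in the operated libraries (598.5, 602 and 597). The median mitochondrial share was low everywhere, at 0.372%, 0.145%, 0.244%, 0.393% and 0.262%. Summed over members, the counts without globins came to 53290, 559716, 310135, 96739 and 198655 UMIs in that order. Gene levels are given in CPM, the counts scaled to a common library total. A count of 3, used below as the limit that a count of 0 allows, equals 56.3, 5.36, 9.67, 31.0 and 15.1 CPM.

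**Figure D1:**
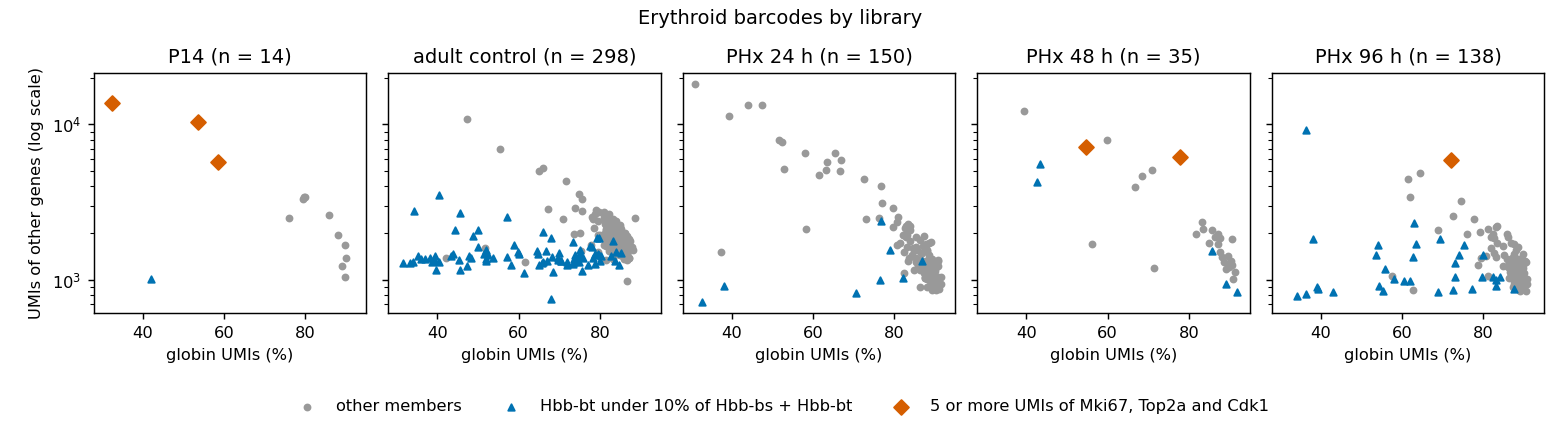
Each point is 1 member, by its globin share of UMIs (x, percent) and its UMIs of all other genes (y, log scale), with 1 panel per library. Most members lie above 80% globin. Diamonds mark the 6 members with 5 or more UMIs of Mki67, Top2a and Cdk1, and triangles the members whose Hbb-bt makes up under 10% of beta-globin UMIs.

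Much of the RNA in these barcodes other than globin was shared with the empty droplets. Scaling the plateau profile to the summed level of 10 hepatocyte genes put its share of the non-globin UMIs at 18.3%, 77.3%, 78.1%, 41.3% and 73.8% in the order P14, control, 24 h, 48 h, 96 h, which is also the order of unlabelled runs of 5 values below. Hepatocyte RNA counts toward this share whatever its source, a hepatocyte caught in the same droplet included. All 635 members carried at least 3 of the 10 hepatocyte genes. The plateau droplets themselves held only 0.0279%, 0.0966%, 0.171%, 0.616% and 0.0825% globin, far below any member. Levels below are given beside the plateau level where this matters.

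Red cell genes that the rule did not use were far above the plateau, and the label of erythroid cells was kept. Alas2 had 5386, 10757, 6136, 7391 and 7802 CPM, against 20.7, 121, 45.1, 57.1 and 67.7 in the plateaus. It was seen in 13 of 14, 272 of 298, 146 of 150, 35 of 35 and 124 of 138 members. Bpgm, which makes the 2,3-bisphosphoglycerate that lowers the oxygen affinity of haemoglobin, had 5761, 11009, 10383, 10192 and 9771 CPM against at most 43.2 in any plateau. Of 20 erythroid marker genes outside the rule, 20, 18, 20, 20 and 19 had a UMI, whereas of 12 early progenitor genes only 2, 4, 3, 1 and 2 did. Gata2, Cd34 and Myb, which mark early progenitors, were at 0 in all libraries, and Kit had 1 UMI in the control and 1 at 24 h.

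Markers of immune and endothelial cells were few, whereas all members carried at least 3 of 10 hepatocyte genes, at 21863 to 85762 summed CPM, in each library below the level of the plateau. Members with at least 3 genes of an immune or endothelial marker list numbered 0, 3, 2, 5 and 1. Of the 5 members at 48 h, 4 of them carried T or NK cell genes, 2 B cell genes and 1 endothelial genes, some in the same barcode. The summed T or NK list had 0, 391, 110, 1127 and 35.2 CPM, against 13.6 to 138 in the plateaus, and the summed B cell list had 18.8, 37.5, 54.8, 320 and 10.1 CPM. No doublet caller was run, and the part of such barcodes in the gene levels at 48 h was not tested beyond leaving them out.

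A core of 77 genes was at least 4-fold above the plateau in all 5 libraries. High among them by level were Ubb, Bpgm, Mkrn1, Alas2, Oaz1, H3f3a, Prdx2, Car2 and Fam220a. Among the leading genes are ubiquitin, its conjugating enzymes and a ligase (Ubb, Ube2l6, Ube2b, Ube2c, Mkrn1), genes of organelle removal (Bnip3l, Gabarapl2, Map1lc3b), red cell enzymes (Bpgm, Car2, Prdx2, Blvrb) and haem synthesis and iron import (Alas2, Fech, Glrx5, Slc25a37). Per library 184, 136, 164, 147 and 113 genes passed this fold, and 95 did so in the control, 24 h and 96 h libraries together. The genes with enough UMIs to be compared numbered 413, 3195, 1778, 664 and 1300, so these counts are not comparable between libraries.

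The make-up of globin differed little between libraries. Hbb-bs gave 54.3%, 59.9%, 57.3%, 57.5% and 60.4% of summed globin UMIs. Hbb-bt gave 15.2%, 14.1%, 15.8%, 15.1% and 13.1%, and the alpha genes together gave 30.5%, 26.0%, 26.9%, 27.4% and 26.5%. P14 thus had the lowest Hbb-bs and the highest alpha share, by a few percentage points. Embryonic globins were close to absent. Hbb-bh1, Hbb-bh2 and Hba-x had 0 UMIs in all members, and Hbb-y had 8 UMIs, all in 1 member at 96 h. The minor alpha-like genes were seen, Hbq1a with 2, 67, 37, 3 and 33 UMIs and Hbq1b with 15, 59, 42, 22 and 21. Scaled by depth, Hbq1b had 281 CPM at P14 and 227 at 48 h against 105 to 135 elsewhere, whereas Hbq1a had 37.5 and 31.0 CPM at P14 and 48 h against 119 to 166 elsewhere. Hbq1a and Hbq1b are related copies, and how reads were assigned between them was not tested.

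Single members varied far more than library sums in 1 respect, the share of Hbb-bt among the beta-globin UMIs. This share formed a broad peak near 20% and, in the control and at 96 h, a separate pile near 0. A threshold of 10%, chosen after the values were seen, put 90 of 298 members below it in the control (30.2%, 25% to 35.8%) and 33 of 138 in the 96 h library (23.9%, 17.1% to 31.9%). It put 1 of 14 below it at P14 (7.14%, 0.181% to 33.9%). The 24 h library had 8 of 150 (5.33%, 2.33% to 10.2%) and the 48 h library 5 of 35 (14.3%, 4.81% to 30.3%). Between 8% and 12% lay 0, 11, 4, 4 and 8 members. At a threshold of 5% the counts were 1, 65, 5, 0 and 24, and at 15% they were 1, 114, 15, 7 and 52. The plateaus had an Hbb-bt share of 16.0% to 23.0%, and since the threshold lies below these values, the low members differ from them by the way they were chosen.

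**Figure D2:**
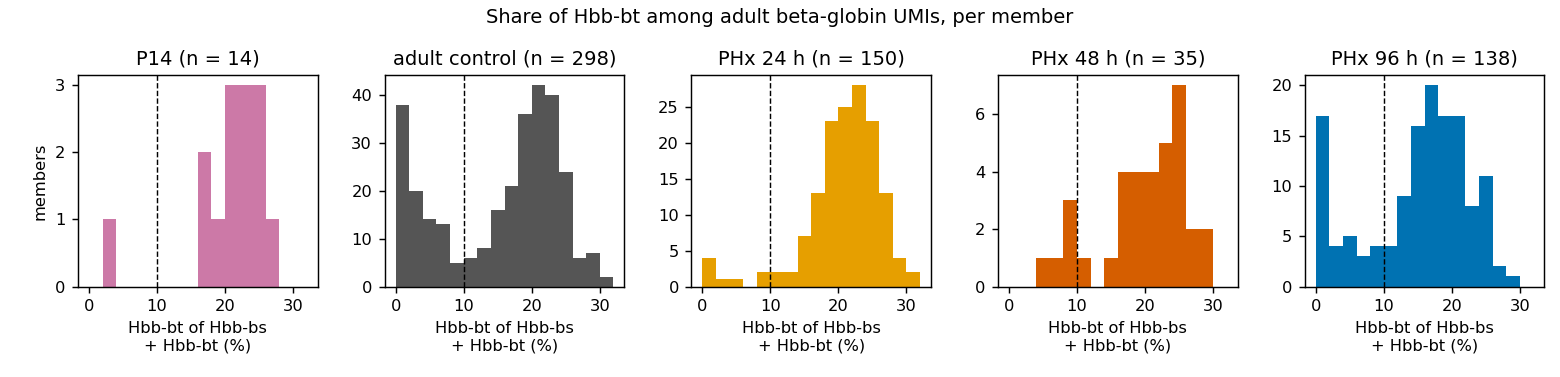
Histograms of the share of Hbb-bt among Hbb-bs and Hbb-bt UMIs (x, percent) over the members of each library (y, number of members), with the 10% threshold dashed. The control has 90 members and the 96 h library 33 members below it, with medians of 20.9% and 18.3% over their other members.

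Members with little Hbb-bt also had less of several other red cell transcripts. In the control their median was 4370.5 UMIs and 66.0% globin, against 11625 UMIs and 83.3% globin in the other members, and the plateau profile accounted for 95.7% of their non-globin UMIs against 71.5%. Bpgm had 865 CPM in them and 14203 CPM in the others, and was seen in 30 of 90 against 207 of 208 members. Mkrn1, a ubiquitin ligase gene, had 470 against 11457 CPM. Alas2 differed less, with 3432 against 13064 CPM, in 64 of 90 against 208 of 208 members. After subtraction of the plateau profile Alas2 had 29218 against 40464 CPM, a smaller difference, while Bpgm kept 7475 against 44246 CPM and Mkrn1 3860 against 35649 CPM.

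Car2, Slc4a1, Trim10 and Lmo2 were at or near 0 in these members. Car2, carbonic anhydrase, had 1 UMI in the 90 low members of the control and 1338 in the others. Slc4a1, the band 3 anion exchanger, had 0 against 184 UMIs (at least 19.3-fold lower), and Trim10, an erythroid gene of the TRIM family, had 0 against 385 (at least 40.4-fold lower). Lmo2, a partner of the erythroid transcription factors, had 0 against 158 UMIs (at least 16.6-fold lower), although the transcription factor list as a whole had 3 lower and 2 higher of 11 genes and a median of -0.31. Over all genes with 5 CPM or more in either set, 23.6% were at least 2-fold higher and 15.1% lower in the low members. Of the 18 erythroid markers measured, 18 were lower, as were 18 of 23 membrane and surface genes and 17 of 21 terminal maturation genes. The median log2 ratios were -4.27, -3.38 and -2.95, or -2.92, -1.96 and -2.89 with genes at 0 set to the limit of 3 counts and genes without a fold left out, beside 0.36 over all genes. Since the plateau profile made up more of the low members, it was also subtracted from both sums, an alternative chosen after the data were seen. The medians were then -5.80 (16 of 18 lower), -4.92 (20 of 25) and -2.75 (15 of 21), beside 1.19 over all genes. Ribosome and translation genes had a median of 0.24 and acute-phase liver genes one of 0.40, near that of all genes. Among genes past 50 CPM, 12.1% were higher and 8.63% lower. The only gene named in the higher direction was the immunoglobulin gene Igkc, with 42 UMIs in 7 low members against 11 UMIs in 11 others. The B cell list moved with it (5 of 5 genes higher), as did the monocyte or macrophage list (4 of 7 higher, 0 lower), and the T or NK list was lower (6 of 6). Over the 298 control members these lists had 21, 25 and 219 UMIs, in 3, 24 and 15 members, so they rest on few barcodes or few UMIs. Members with 3 or more genes of another class numbered 1 among the low and 2 among the others.

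At 96 h low members again had less of these lists. The 33 low members had a median of 3745 UMIs and 62.9% globin, against 9778 UMIs and 87.9% in the others. Cd24a, a surface glycoprotein gene of erythroblasts, had 0 against 268 UMIs (at least 27.7-fold lower), and Slc4a1 0 against 81 (at least 8.36-fold lower). At least 2-fold lower were 19 of 19 erythroid markers, 23 of 25 membrane genes and 19 of 21 terminal maturation genes, beside 41.4% lower and 24.1% higher over all genes with 5 CPM or more (15.7% and 23.4% past 50 CPM). With genes at 0 set to the limit, the medians were -2.17, -1.77 and -2.78. Other lists differed more at 96 h than in the control. Of the transcription factors 10 of 12 were lower (median -3.83, or -1.70 over the 5 with a fold at the limit), and of the haem and iron genes 17 of 24 (-2.48, or -0.97 at the limit), against 11 of 24 (-0.68) in the control. Whether the libraries differ in this was not tested. At 24 h and 48 h the low members numbered 8 and 5, too few for such lists, and 3 of the 5 at 48 h carried markers of another class. What separates the low members was not tested.

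The share of members with a UMI of Mki67, Top2a or Cdk1, genes of cells in S, G2 and mitosis, was highest at P14. Each member was thinned to 1000 non-globin UMIs, and P14 then had 28.6% (4 among 14, interval 8.39% to 58.1%) and the control 0.676% (2 among 296, interval 0.0819% to 2.42%). The 24 h members had 7.69% (10 among 130, interval 3.75% to 13.7%), those of 48 h 9.09% (3 among 33, interval 1.92% to 24.3%) and those of 96 h 8.08% (8 among 99, interval 3.55% to 15.3%). Members below that depth, 0, 2, 20, 2 and 39 of them, were left out. Without thinning the shares were 35.7%, 1.34%, 16%, 17.1% and 6.52%. The intervals of all 3 operated libraries overlap each other and that of P14. The interval of the control overlaps only that of 48 h.

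Empty droplets carried these genes too, and the plateau levels differed between libraries. Neutrophil barcodes of the same libraries had 2, 0, 6, 1 and 2 carriers among 55, 46, 162, 168 and 74 after the same thinning. Their shares were 3.64%, 0%, 3.70%, 0.595% and 2.70%, and the 0 in the control allows up to 6.52%. Before thinning, 4 of the 55 at P14 had at least 2 of the 3 genes, and whether dividing precursors are among them was not tested. Their median depth before thinning was 7125, 3337, 5459, 9227.5 and 3818 non-globin UMIs. The erythroid and neutrophil intervals overlap in every library. Summed over members, the 3 genes had 1970 CPM at P14 (1612 to 2385) and 7.15 in the control (1.95 to 18.3). They had 99.96 CPM at 24 h (67.9 to 142), 775 at 48 h (610 to 972) and 101 at 96 h (61.5 to 155). The plateaus had 82.5, 5.95, 93.8, 167 and 28.7 CPM. The members stood above the plateau at P14, 48 h and 96 h, and at its level within counting error in the control and at 24 h.

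**Figure D3:**
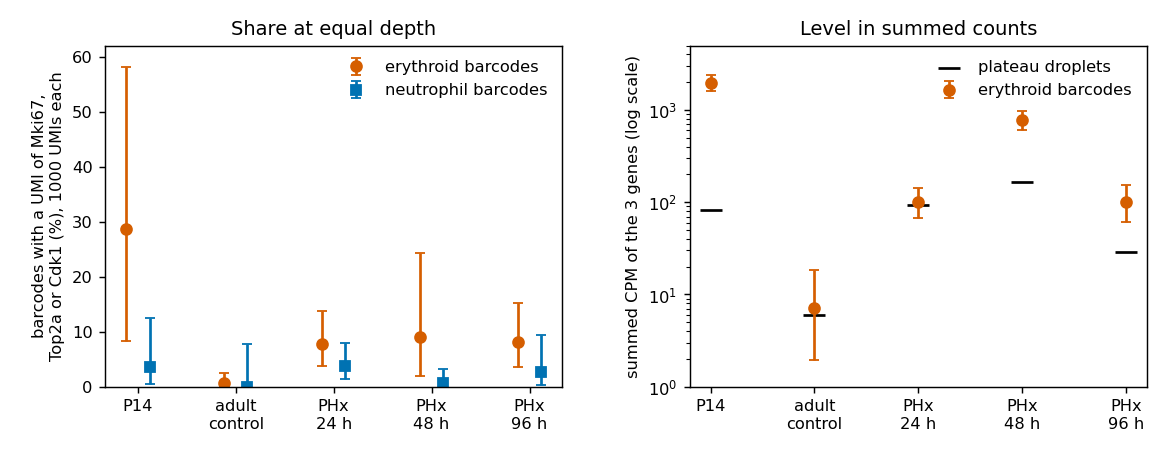
Left, share of barcodes with a UMI of Mki67, Top2a or Cdk1 (y, percent) for erythroid and neutrophil barcodes of each library, each thinned to 1000 non-globin UMIs, with exact binomial 95% intervals. Right, summed CPM of the 3 genes (y, log scale) in erythroid barcodes with exact Poisson 95% intervals and in plateau droplets (bars): 24 h members are at the plateau, P14 and 48 h members are above it.

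The excess lay in 6 members. At P14, 103 of the 105 UMIs of the 3 genes were in 3 members, and at 48 h, 72 of 75 were in the top 3. At 24 h the top 3 held 9 of 31, and 20 of the 24 carriers had a single UMI. In the control all 4 carriers had 1 UMI each. Members with 5 or more UMIs, a limit set after the values were seen, numbered 3, 0, 0, 2 and 1.

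Each of the 6 carried a broad division programme with a low share of hepatocyte RNA. The 3 at P14 had 59, 33 and 11 UMIs of the 3 genes and UMIs of 23, 19 and 17 of 24 mitosis genes (Ube2c and Nusap1 left out of this count). Mki67, Top2a and Cdk1, which chose the 6, were not taken out of the list, and members were not thinned for the count. The 2 at 48 h had 41 and 30 UMIs and 20 and 18 mitosis genes, and the 1 at 96 h had 12 UMIs and 16 mitosis genes. Genes of DNA replication split them. Members 2 and 3 of P14 held 23 and 15 of 24 replication genes and member 2 of 48 h held 17, against 8, 3 and 1 in the others. Those latter 3 had the most Ube2c, the mitotic ubiquitin-conjugating enzyme, with 69, 118 and 64 UMIs against 14, 7 and 10, and 15, 17 and 12 UMIs of cyclin B1 (Ccnb1) against 3, 1 and 0. Rrm2, a subunit of ribonucleotide reductase used in DNA synthesis, went the other way with 7, 2 and 0 UMIs against 33, 22 and 28. The 6 were deep, with 13860 to 27772 UMIs and 1609 to 2923 genes, and had 32.4% to 77.8% globin and 0.544% to 2.09% mitochondrial UMIs. The plateau profile accounted for 4.29% to 14.9% of their non-globin UMIs. Their Hbb-bt share was 16.3% to 28.1%.

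Several regulators of erythroblasts were counted mostly in these 6. The other members held 23544 of the 53290 non-globin UMIs at P14, 83443 of 96739 at 48 h and 192776 of 198655 at 96 h. UMI counts at P14 should be read against that share, and Klf1 there had 672 CPM in the 3 and 42.5 in the rest. Klf1, the erythroid Krüppel-like factor that drives beta-globin, had 9, 7 and 4 UMIs in the 3 at P14, 17 and 7 in the 2 at 48 h and 3 in the 1 at 96 h. All other members together had 1, 0 and 1 Klf1 UMIs in those libraries. Hemgn, a nuclear regulator of erythroid differentiation, had 50, 62 and 28 UMIs in the 6 by library and 2, 2 and 4 in the rest. Rhag, the Rh-associated glycoprotein, had 27 against 2 UMIs at 48 h and 12 against 3 at 96 h, but at P14 it was seen in both, with 30 in the 3 (1009 CPM) and 16 in the rest (680 CPM). Epor, the erythropoietin receptor, had 2, 2 and 2 UMIs in the 3 at P14, 2 and 0 at 48 h and 4 at 96 h. The rest had 2, 0 and 1 Epor UMIs by library, and at P14 its level was 202 CPM in the 3 and 84.9 in the rest.

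Late red cell transcripts had the reverse pattern. Bpgm had 0 UMIs in the 3 members of P14 against 307 in the other 11 (13039 CPM), 11 UMIs (827 CPM) against 975 (11685 CPM) at 48 h, and 2 UMIs (340 CPM) against 1939 (10058 CPM) at 96 h. Alas2 was present in both and lower in the 6, with 1614 against 10151 CPM at P14, 4287 against 7886 at 48 h and 5443 against 7874 at 96 h. Slc4a1, in contrast, was higher in the 6 at 48 h (3911 against 635 CPM) and at 96 h (4082 against 296 CPM), and lower at P14 (1849 against 2591 CPM). Car2 followed Slc4a1, with 8942 CPM in the 3 of P14 and 14101 in the rest there. The dividing members of 48 h had 11582 CPM (rest 3368) and that of 96 h 17860 (rest 1333). The other members of P14 thus had more Slc4a1 and Car2 than the dividing ones, and those of 48 h and 96 h had less.

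**Figure D4:**
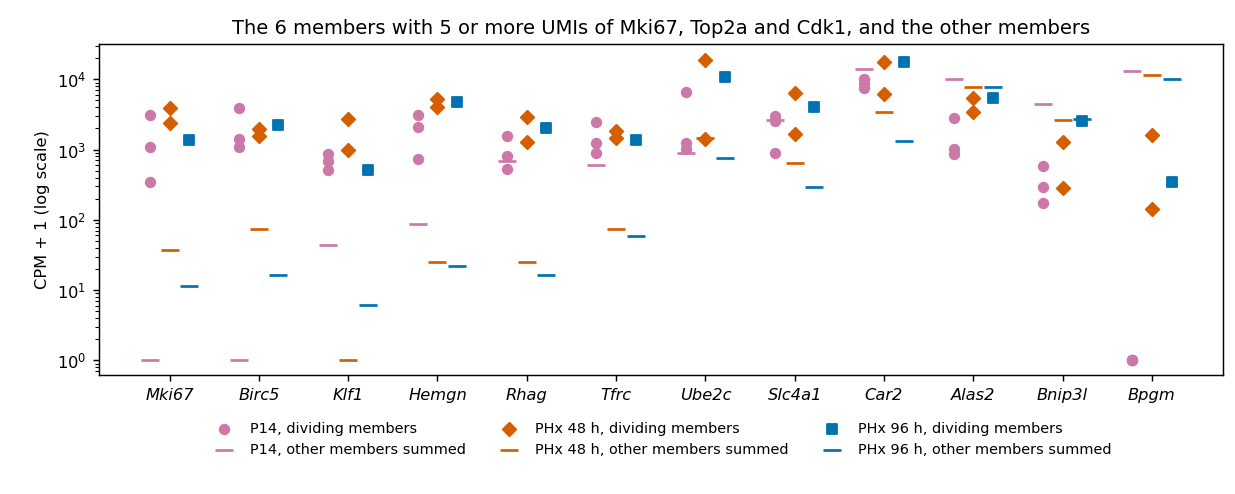
CPM + 1 (y, log scale, counts without the 4 globin genes) of 12 genes in each of the 6 members with 5 or more UMIs of Mki67, Top2a and Cdk1 (points) and in the summed other members of the same library (bars). Klf1 and Hemgn are high in the points and low in the bars, and Bpgm is the reverse.

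Ube2c and Nusap1 were expressed outside the dividing members as well. Ube2c had 2083, 993, 861, 2595 and 1052 CPM (913 to 1079 in the control), in 10, 143, 94, 27 and 45 members, against 40.2, 2.77, 48.2, 170 and 12.6 CPM in the plateaus. Mki67 over the same members had 919, 3.57, 22.6, 455 and 50.3 CPM. In the control, then, Ube2c was in 143 members while Mki67 was in 2. Without the 6 members, Ube2c had 892 CPM at P14, 1474 at 48 h and 752 at 96 h. Nusap1, a spindle protein gene, was likewise in 76 of the control members at 211 CPM, against 0.716 in the plateau. In the control Ube2c had 3 UMIs in the 90 members with little Hbb-bt and 553 in the other 208.

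Set against the control, the cell cycle lists had higher medians in all 4 other libraries before subtraction of the plateau profile, most at P14. Here a gene is counted when it had at least 5 CPM in either library, and a ratio is log2((CPM + 1)/(CPM + 1)). In the control 12 of 26 mitosis genes had 0 UMIs, and Mki67 and Cdk1 had 3.57 and 1.79 CPM. Such a gene is counted only when the other library reaches 5 CPM, and then cannot come out lower. The counts of higher genes are thus in part fixed by this rule. All 26 mitosis genes counted were at least 2-fold higher at P14, where 25.9% of all such genes were higher and 49% lower, and the list median was 6.79 (5.76 with genes at 0 set to the limit of 3 counts) beside -0.89 over all genes. At 24 h 13 of 16 were higher (15.6% of all genes, with 34.2% lower), with a median of 2.62 (1.21 at the limit) beside -0.42. At 48 h 24 of 24 were higher (28.9% of all genes, with 33.7% lower), with 5.45 (4.33) beside -0.05, and at 96 h 17 of 19 (18.4% of all genes, with 28.3% lower), with 3.47 (2.49) beside -0.19. The 24 h value went to 0.00 when the plateau profile was subtracted, while P14, 48 h and 96 h kept 6.80, 5.82 and 3.77. Without the 6 members, 4 of 9 mitosis genes were higher and 2 lower at P14 (16.9% and 66.3% of all genes), with a median of 0.27, or 2.99 over the 7 that keep a fold at the limit. At 48 h 15 of 18 were higher and 1 lower (27% and 36.3% of all genes), with 3.36 (1.94 at the limit). The other 48 h members had 36.0 CPM of Mki67 and 71.9 of Birc5, against 35.3 and 114 in the plateau, and 1 UMI of Cdk1. The whole mitosis list had 1378 CPM in the 48 h plateau and 83.6 in that of the control. At 96 h 8 of 13 were higher (17.3% of all genes, with 29.4% lower), with 1.31.

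For replication genes the median against the control was 4.73 at P14 (24 of 24 higher), 2.24 at 24 h (18 of 20), 3.19 at 48 h (20 of 21) and 0.70 at 96 h (8 of 17), or 4.67, 1.89, 2.62 and 0.63 at the limit. The 96 h value depended on the globin threshold for members and was 3.56 at 20% globin. With the plateau profile subtracted, it was 5.23, -3.11, 2.60 and 0.44, so the direction at 24 h turned. Over all genes 25.9%, 15.6%, 28.9% and 18.4% were higher. In the control 6 of 24 replication genes had 0 UMIs, so the rule of 5 CPM in part fixed these counts as well. Without the 3 dividing members of P14, only 4 of 11 genes kept a fold at this depth, with a median of 2.41 at the limit, and 7 did not. Without theirs, 48 h had 1.87 (10 higher and 1 lower of 16, beside 27% and 36.3% of all genes) and 96 h 0.74 (8 higher and 2 lower of 17, beside 17.3% and 29.4%). The 24 h plateau had 47.3 CPM of Mcm5 and 113 CPM of Pcna, against 1.54 and 21.1 in the control plateau, and the 24 h members had 41.9 and 51.6 CPM. These levels in the 24 h members were not above those of the empty droplets.

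**Figure D5:**
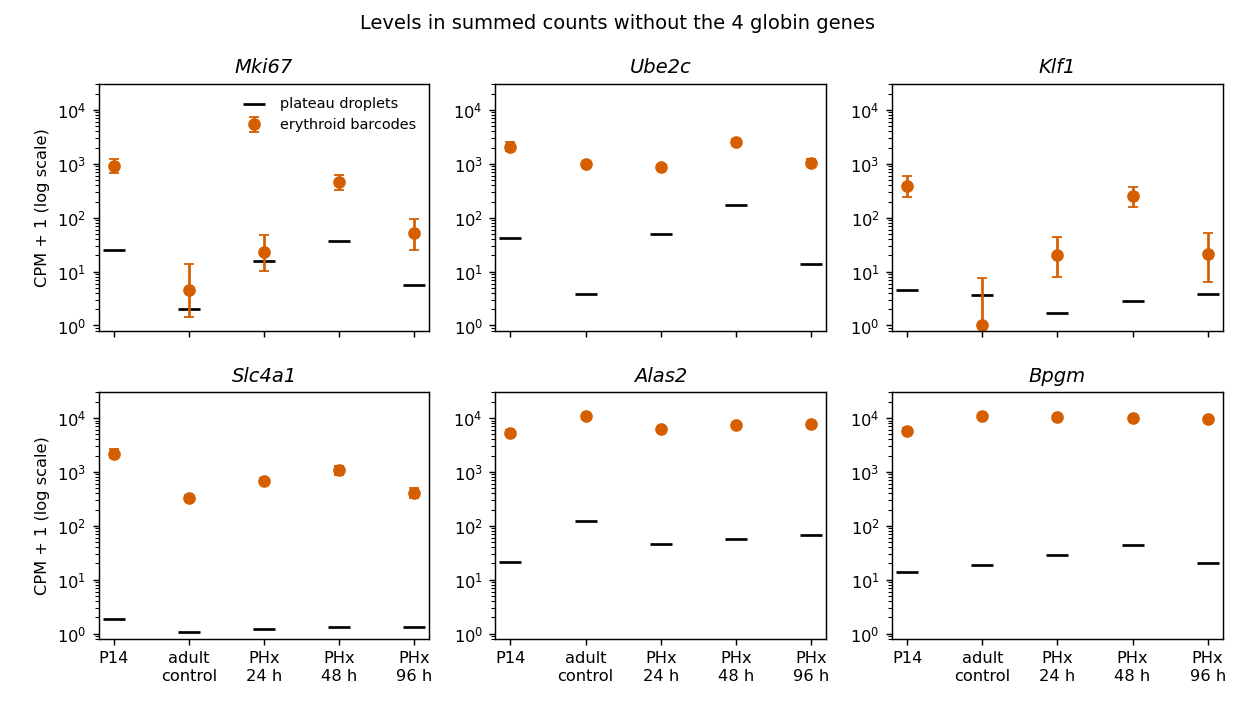
CPM + 1 (y, log scale, counts without the 4 globin genes) of 6 genes summed over the members of each library, with exact Poisson 95% intervals, beside the plateau droplets (bars). Mki67 and Klf1 vary most between libraries, Ube2c and Slc4a1 vary less, and Alas2 and Bpgm least.

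Erythroid transcription factors were highest at P14 and 48 h. Of 16 genes counted at P14, 13 were at least 2-fold higher than in the control, with a median of 4.49 (4.13 at the limit), and of 16 at 48 h, 10 were, with 2.84 (2.58). At 24 h and 96 h 4 of 12 and 4 of 13 were, with medians of 0.40 (0.45 at the limit) and 0.52 (0.72). In the order P14, 24 h, 48 h, 96 h, 2, 2, 1 and 2 of these genes were lower. Over all genes 25.9%, 15.6%, 28.9% and 18.4% were higher and 49%, 34.2%, 33.7% and 28.3% lower. Klf1 had 394 CPM at P14 (244 to 602) and 248 CPM at 48 h (159 to 369). It had 19.3 and 20.1 CPM at 24 h and 96 h and 0 UMIs in the control. Gata1, the master factor of the lineage, had 6, 0, 1, 9 and 0 UMIs, and Tal1, its partner, 22, 1, 1, 8 and 5. Lmo2 was seen in every library, with 713, 282, 316, 403 and 227 CPM. Without the 6 members the list medians were 2.58 at P14 (12 higher and 1 lower of 14), 0.67 at 48 h (6 and 2 of 13) and -0.24 at 96 h (3 and 2 of 12). Over all genes 16.9%, 27% and 17.3% were then higher and 66.3%, 36.3% and 29.4% lower. The other 11 members of P14 had 1 UMI of Klf1, 1 of Gata1 and 2 of Tal1. There 1 UMI equals 42.5 CPM, so the P14 median rests in part on single UMIs.

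Erythropoietin signalling gave few UMIs. Epor had 8, 0, 0, 2 and 5 UMIs, and in the control and 24 h libraries a count of 0 allows up to 5.36 and 9.67 CPM. Pim1, a kinase gene that this pathway induces, had 2421, 102, 187, 299.8 and 85.6 CPM, with plateau levels of 12.7 to 39.6. Erfe, the erythroblast hormone that lowers hepcidin, had 3 UMIs at P14, 1 at 48 h and 0 elsewhere. Cish and Socs2, feedback inhibitors, had at most 13 UMIs in any library. The list median at P14 was 0.55 over 12 genes, with 6 higher and 5 lower, and 3.39 over the 7 genes that keep a fold at the limit. Only 7 genes of the list had a UMI there. The 5 lower ones had 0, which allows up to 56.3 CPM. Without the 3 dividing members the median was -3.03 (3 higher and 7 lower of 11), beside 16.9% higher and 66.3% lower over all genes, so no direction is given for the list. At 24 h it had -1.06 (1 higher and 5 lower of 10), at 48 h 0.41 (4 and 3 of 12) and at 96 h -0.25 (1 and 2 of 11). The shares of all genes were 25.9%, 15.6%, 28.9% and 18.4% higher and 49%, 34.2%, 33.7% and 28.3% lower.

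Most membrane and surface genes were higher than in the control at P14 and 48 h. At P14 23 of 25 were at least 2-fold higher, with a median of 3.40, and at 48 h 19 of 25, with 1.72. The 48 h count rested on the 2 dividing members, without which 5 of 23 were higher and 3 lower, beside 27% and 36.3% of all genes. At 24 h 10 of 25 were higher and 4 lower, with 0.88, and at 96 h 11 were higher and 1 lower, with 0.77. With the plateau profile subtracted the medians were 2.47, 0.77, 1.06 and 0.82, beside 0.58, -0.95, 1.03 and 0.26 over all genes. The shares of all genes, before subtraction, were 25.9%, 15.6%, 28.9% and 18.4% higher and 49%, 34.2%, 33.7% and 28.3% lower. Slc4a1 had 2177 CPM at P14 (1799 to 2611) and 329 in the control (283 to 380). After surgery it had 674 CPM (586 to 772), 1085 CPM (888 to 1314) and 408 CPM (324 to 507) in time order. The interval of 96 h overlaps that of the control, and those of P14, 24 h and 48 h do not. These levels are before subtraction of the plateau profile, which made up 18.3%, 77.3%, 78.1%, 41.3% and 73.8% of non-globin UMIs. Slc4a1 had at most 0.858 CPM in any plateau, so its level depends on these shares, and no subtracted values are given for it. At 48 h the 2 dividing members held 52 of its UMIs and the others 53 (635 CPM). Rhd, a subunit of the Rh complex, had 2139, 67.9, 161, 786 and 176 CPM. The dividing members held 62 of its 76 UMIs at 48 h and 28 of 35 at 96 h, and the others had 168 and 36.3 CPM, the latter below the control.

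Members of low Hbb-bt made up the largest share in the control, but its interval overlaps those of P14, 48 h and 96 h. The order of the control and 96 h also depended on the gene minimum. Among globin-rich barcodes under 500 genes, 62 of 101 were low at 96 h and 1 of 1 in the control. Leaving the low members out moved the membrane list most at 24 h. Among members with at least 10% Hbb-bt, the membrane list median was 3.32, 0.47, 1.60 and 0.77 for P14 and the 3 operated libraries, beside -0.58, -0.28, 0.02 and -0.09 over all genes. Higher than in the control were 22, 5, 18 and 11 of 25 genes and lower 0, 3, 1 and 1, beside 28.3%, 18.1%, 28.9% and 20.5% higher and 46.2%, 31.5%, 35.1% and 27.3% lower over all genes. Car2 in these members was 11438, 3143, 4461, 5024 and 2380 CPM. With members of low Hbb-bt kept and the 6 dividing members left out, the list median was 3.14 at P14, 0.62 at 48 h and -0.13 at 96 h. The direction at 96 h thus turned without 1 member.

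Haem synthesis was divided by step. Alas2, the first and rate-setting enzyme, was highest in the control, at 10757 CPM (10487 to 11033). The next was 96 h, at 7802 CPM (7419 to 8201), then 48 h at 7391 (6859 to 7953), 24 h at 6136 (5863 to 6418) and P14 at 5386 (4781 to 6046). The intervals of 96 h and 48 h overlap, and that of 24 h overlaps P14. With the plateau profile subtracted the levels were 6435, 41064, 20237, 11661 and 26184 CPM, so the control stayed highest and P14 lowest, and 24 h and 48 h changed places. Before subtraction the place of P14 rested on its 3 dividing members, and the other 11 had 10151 CPM, close to the control. No subtracted value is given for these 11, whose plateau share was 31.3% against 77.3% in the control. Fech, the last enzyme, which inserts iron, followed Alas2 with 2444 CPM in the control against 1445, 1661, 1685 and 1656. At P14 the 11 other members had 2379 CPM of Fech and the 3 dividing ones 706. Among members with at least 10% Hbb-bt the control was also highest, with 13064 CPM of Alas2 against 5490, 6272, 8170 and 9560. Urod and Cpox, enzymes of the later steps, had 1576, 234, 332, 517 and 277 CPM and 1407, 127, 99.96, 310 and 196 CPM. Uros, also between the first and last step, had 4 UMIs in the control and 23 at P14 (432 CPM).

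Among iron uptake genes Tfrc was lowest in the control. Tfrc, the transferrin receptor, had 995, 25, 80.6, 289 and 95.6 CPM, with plateau levels of 111, 19.8, 27.3, 15.1 and 8.09. Slc25a37, the mitochondrial iron importer of erythroid cells, had 2421, 686, 1193, 1075 and 1223 CPM, against 7.67 to 22.3 in the plateaus. With the plateau profile subtracted it had 2893, 2594, 3900, 1690 and 4100 CPM, so that 48 h and not the control was lowest. The ferritins Fth1 and Ftl1 were abundant in plateaus as well, so their levels in members cannot be read as red cell levels. The haem and iron list as a whole had medians of 1.41 at P14 (13 of 24 higher, 2 lower), -0.11 at 24 h (2 higher, 5 lower of 24), 0.42 at 48 h (8 higher, 5 lower of 24) and 0.24 at 96 h (4 higher, 4 lower of 25). Over all genes 25.9%, 15.6%, 28.9% and 18.4% were higher and 49%, 34.2%, 33.7% and 28.3% lower, so the counts of higher genes after surgery were near or below the background. With genes at 0 set to the limit the medians were 1.92, 0.11, 0.61 and 0.24, so the sign at 24 h differs between the 2 forms.

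For terminal maturation genes the direction at P14 and 48 h depended on the scaling and on whether free RNA was subtracted, and at P14 also on 3 members. Their median against the control was 0.14 at P14, 0.13 at 24 h, 0.04 at 48 h and -0.17 at 96 h over 21 genes, with at most 5 higher or 2 lower in any library. With TMM scaling the medians of P14 and 48 h were -0.45 and -0.32. After subtraction of the plateau profile P14 had -1.46 (2 higher and 12 lower of 21) and 48 h -1.09 (0 higher and 12 lower of 21), beside 0.58 and 1.03 over all genes, while 24 h and 96 h had -0.07 and -0.27. Without the 3 dividing members P14 had 1.13 (12 higher and 0 lower of 21), beside 16.9% higher and 66.3% lower over all genes. Bnip3l, which marks mitochondria for removal, had 2158, 3164, 2934, 2378 and 2759 CPM, and Mkrn1 5780, 8826, 9780, 9066 and 8346. P14 was lowest in both. There the 3 dividing members had 370 CPM of Bnip3l, against 4417 in the other 11, and 437 CPM of Mkrn1 against 12530. Before subtraction P14 was thus not lowest without them. Xpo7, a nuclear export factor of late erythroblasts, was highest at P14, with 1539, 120, 293, 382 and 191 CPM. It was not alone, since 5 of the 21 genes were at least 2-fold higher at P14 than in the control. Among all genes with 5 CPM or more 25.9% were higher there, so this count was near the background.

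Red cell enzymes split as well. Car2 had 11222, 2392, 4346, 4497 and 1822 CPM, and Prdx2, a peroxiredoxin that is among the most abundant red cell proteins, 10546, 3137, 4263, 5871 and 2874. Both were highest at P14 and lowest at 96 h. Without the plateau profile 24 h was highest, with 14383 CPM of Car2 and 13513 of Prdx2 against 13403 and 12549 at P14. Blvrb, biliverdin reductase B, had 5160, 1381, 2270, 2584 and 1258 CPM. Bpgm had another order before subtraction, lowest at P14 (5134 to 6443) and highest in the control (10736 to 11288). This rested on the 3 dividing members of P14, which had 0 UMIs of it. The other 11 members there had 13039 CPM, above every other library before subtraction. The plateau profile made up 31.3% of their non-globin UMIs, against 77.3% in the control and 78.1% at 24 h. With it subtracted, all P14 members had 6885 CPM of Bpgm and the control 42342, and no such value is given for the 11. The list as a whole had medians of 0.57, -0.03, -0.08 and -0.15 against the control, and that of P14 was -0.04 with TMM scaling. Ribosome and translation genes had medians of 0.92, 0.68, 1.01 and 0.52 over 16 genes, with 7, 1, 8 and 0 at least 2-fold higher and 2 lower at 24 h, beside 25.9%, 15.6%, 28.9% and 18.4% higher over all genes. At P14 the median was -0.24 (1 higher and 3 lower) without the dividing members. The summed list was close to the empty droplets in the control (15258 against 16036 CPM), at 24 h (18943 against 19344) and at 96 h (18515 against 18754), and at most 1 of its genes was 4-fold above the plateau in any library.

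Genes picked by size, with no regard to a list, described P14 as follows. Among genes with 50 CPM or more in either of the libraries compared, 36.5% were at least 2-fold higher than in the control and 32.6% lower (1334 and 1190 genes, or 806 and 1576 with TMM scaling, which sets libraries level on the bulk of genes). After Xist, described below, the highest ratios among genes above the plateau were those of Hist1h2ae (8.82), Hmgb2 (7.24), Hist1h1e (7.13), Rhag (6.73), Asns (6.31) and H2afx (6.30). Hist1h2ae, Hmgb2, Hist1h1e and H2afx are histone and chromatin genes. Of the 110 Hist1h2ae UMIs, 108 were in the 3 dividing members. Next were Ermap (5.85), an erythroid surface protein gene, Uros (5.73) and Mthfd2 (5.31). Asns and Mthfd2 are enzymes of asparagine and one-carbon metabolism. Asns was in 8 of 14 members. The lowest ratios among red cell genes were those of Hbq1a (-1.65), Ube2l6 (-1.22), Fam220a (-1.09), Alas2 (-0.998) and Bpgm (-0.93). Most of these ratios moved with the 3 dividing members. Before subtraction of the plateau profile, the other 11 had 4035 CPM of Ube2l6 (4595 in the control), 3398 of Fam220a (3704) and 10151 of Alas2 (10757). They had 13039 CPM of Bpgm (11009) and 2 UMIs of Hbq1a. The plateau share was 31.3% in these 11 and 77.3% in the control, and no subtracted values are given for the 11.

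Xist, the RNA of the inactive X chromosome in females, had 40 UMIs in 5 of 14 members at P14 and 0 in all adult members (at least 140-fold higher than in the control). The P14 plateau had 136 CPM and the adult plateaus 0. Of the 40 UMIs, 34 were in the 3 dividing members (1143 CPM) and 6 in the other 11 (255 CPM). Female cells and age cannot be told apart in any comparison of P14 with the adult libraries.

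At 24 h 16.6% of genes past 50 CPM were at least 2-fold higher than in the control and 31% lower. The gene with the highest ratio was the unnamed locus Gm32051, with 59 UMIs in 33 members against 3 UMIs in 2 members (4.91, counting interval from 3.53). Cox6b2, a subunit of cytochrome oxidase, was next (2.07, 36 against 15 UMIs), then Mgst3 (1.497), Mllt3 (1.46) and Atpif1 (1.42), an inhibitor of mitochondrial ATP synthase needed for haem synthesis. Interferon-induced genes were among the lowest, Sp100 (-1.72), Isg15 (-1.01) and Irf7 (-1.01). Isg15 had 571 CPM (490 to 661) against 1152 in the control (1065 to 1245), and 1576, 1189 and 1143 CPM at P14, 48 h and 96 h. Of 10 interferon genes counted at 24 h, 5 were at least 2-fold lower and 1 higher, beside 34.2% lower and 15.6% higher among all genes, and the list median was -0.93 (-0.37 at the limit, beside -0.42 over all genes).

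At 48 h 27.6% of genes were higher and 29.3% lower (929 and 986 genes, or 592 and 1216 with TMM scaling). The balance depended on the processing, with 1433 higher and 429 lower after subtraction of the plateau profile, and 340 higher and 1143 lower with no gene minimum. Dusp2, a phosphatase gene of activated lymphocytes, had the highest ratio, with 27 UMIs in 5 members against 0 in the control (at least 52.1-fold higher). Genes of dividing cells came next, Mki67 (6.64), cyclin B2 (Ccnb2, 6.48) and Hmgb2 (5.42). The others were Lbr (4.44), Lockd (4.06), Cd52 (3.60), Txnip (3.59), Rhd (3.51) and Tfrc (3.48). Cd52, a lymphocyte surface gene, had 83 UMIs in 5 members. Dusp2 and Cd52 stand beside the 5 members with markers of other classes. Lowest were Hbq1a (-1.91), Irf7 (-1.47) and Ncoa4 (-1.23), the receptor for ferritin turnover.

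At 96 h 12.7% were higher and 21.7% lower (364 and 620 genes). Subtraction of the plateau profile turned this balance, with 1086 higher and 482 lower. The dividing member carried the leading genes. Hemgn (3.41) had 28 of its 32 UMIs in that member, Hmgb2 (3.23) 34 of 45 and Rhd (1.36) 28 of 35. Fam117a (-1.31) and Irf7 (-1.07) were among the lowest.

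Between the operated libraries, 48 h stood above both neighbours in the mitosis list. Set against 24 h, 24 of 24 mitosis genes were higher (median 3.33 beside 0.23 over all genes), 14 of 24 membrane genes (1.58) and 11 of 16 transcription factors (2.38), beside 34.8% higher and 23.5% lower among all genes of 5 CPM or more (25.4% and 14.8% past 50 CPM). From 48 h to 96 h, 24 of 24 mitosis genes (-2.55 beside -0.03), 13 of 25 membrane genes (-1.38) and 11 of 16 transcription factors (-1.75) were lower, beside 29.1% lower and 31.8% higher among all genes of 5 CPM or more (27.1% and 22.3% past 50 CPM). Once the plateau profile was subtracted, the membrane list had 0.63 beside 2.50 over all genes from 24 to 48 h, and -0.31 beside -0.71 with 4 lower and 3 higher from 48 to 96 h. The transcription factors then had 2.07 (10 higher and 2 lower) beside 2.50 over all genes, and -0.78 (1 higher and 7 lower) beside -0.71. Neither value was far from that of all genes. TMM scaling turned the balance of all genes, with 438 higher and 916 lower from 24 to 48 h (745 and 434 without it), and 1070 higher and 515 lower from 48 to 96 h (693 and 843 without it). These 2 comparisons share the 48 h library, in which 2 members held most of the division genes.

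Liver acute-phase genes, which hepatocytes make in inflammation, were lower in members than in empty droplets. Their summed level in members was 1726, 7822, 62141, 42113 and 8200 CPM, against 7759, 10358, 75603, 90839 and 11525 in the plateaus. The high values of 24 h and 48 h members thus stood beside high values in their empty droplets.

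Barcodes with at least 30% globin but under 500 genes carried the same late red cell genes. The 269 at 48 h had 27079 CPM of Bpgm, 19240 of Alas2 and 9463 of Car2, more than the 35 members of that library (10192, 7391 and 4497). Of them 16 (5.95%, 3.44% to 9.48%) had a UMI of Mki67, Top2a or Cdk1, and 3 had at least 3 mitosis genes. The 101 at 96 h had 4517 CPM of Bpgm and 130 of Car2, less than the members there, and a plateau share of 91.3%. Little Hbb-bt was seen in 36 of 82 in the 24 h library (43.9%, 33.0% to 55.3%), in 62 of 101 in the 96 h library (61.4%, 51.2% to 70.9%), in 60 of 269 in the 48 h library (22.3%, 17.5% to 27.8%) and in 5 of 8 at P14, a larger share than among members at 24 h and 96 h by intervals that do not overlap. The gene minimum was met least often by globin-rich barcodes of the 48 h library, which had the plateau of fewest UMIs.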

How the data were processed

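Liver cells of 5 samples, 1 library each, were counted with the 10x v3 kit. The deposited matrices hold counts of UMIs per gene and barcode, made by the authors with software version 3.0.2, per the file headers. The submitters' processing notes name Cell Ranger, the build mm10, bcl2fastq 2.17.1.14 and Seurat 3.1. No filter on barcodes or genes was found in them. Members and gene lists were chosen with earlier results of these data known. Members were found by the limits given above, the 4 globin genes were removed, and counts were summed per library and scaled to CPM. Ratios used a pseudocount of 1 CPM. With 1 library per group no test was made. Exact Poisson and Clopper-Pearson intervals were computed at 95%. Plateau droplets gave the free RNA profile, scaled to 10 hepatocyte genes. No doublet caller was used.

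The genes named for each comparison with the control were the 10 highest and 10 lowest ratios, and the text gives a part of them. They were taken among genes with 50 CPM or more in either library, with 20 UMIs, 5 members and 4 times the plateau level in the higher library. From each of the 26 lists the text names up to 4 genes with the most UMIs and genes past 2-fold. The thresholds of 10% for Hbb-bt and of 5 UMIs for the division genes were set after the values were seen, as were the genes followed in those splits. Promoters came from RefSeq tables of GRCm38.p6. Python 3.11.15, numpy 2.4.6, scipy 1.17.1, pandas 2.3.3 and matplotlib 3.10.9 were used, with R 4.3.3, edgeR 4.0.16 and DESeq2 1.42.0 for alternative scaling factors. The scripts were tested on simulated data. Alternatives covered the limits, the thinning depth, the scaling, the pseudocount, subtraction of free RNA and equal weight for each member. Some genes are not reported here.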

Additional observations from a re-analysis of the deposited data

Results flagged for a closer look

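Barcodes with at least 30% globin but under 500 genes fell outside the members. They numbered 8 at P14, 82 at 24 h, 269 at 48 h and 101 at 96 h, against 1 in the control. They are listed because this signal lies outside the main measurement and above the level in the control library. In the 48 h library they outnumbered the 35 members. What these barcodes hold, beyond the gene levels given above, was not tested.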

How the results depend on the processing

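No paired analysis was possible because each group has 1 library. The main limits are this single library per group, the 14 members at P14, the 6 members that carry most division genes, and the RNA shared with empty droplets. With no gene minimum the members numbered 232, 304 and 239 at 24, 48 and 96 h. The cycling share in the control was 0% with thinning to 3000 UMIs, with 2 of the 3 genes required, with 1000 UMIs of all genes, and with 3 mitosis genes. The same 4 settings gave 29.4%, 0%, 1.33% and 1.54% at 24 h, where no thinning gave 16%. They gave 16.7%, 0%, 0.725% and 1.01% at 96 h, where thinning to 500 gave 1.45%. Thinning to 3000 UMIs left only 8 members in the control, 17 at 24 h and 6 at 96 h, so its shares rest on few members.

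For the list medians on the log2 scale, globin of 20% or more gave 5.52 (mitosis) and 3.56 (replication) at 96 h, and no gene minimum gave 4.45 and 2.20 at 48 h. A pseudocount of 10 gave 4.65 and 3.38 at P14, 0.89 and 1.06 at 24 h, 3.41 and 1.60 at 48 h, and 1.38 (mitosis) at 96 h. Equal weight per member gave 5.54 and 3.54 at P14, 2.29 (replication) at 48 h and 2.19 (mitosis) at 96 h. Subtraction of free RNA gave 0.00 and -3.11 at 24 h, the latter a reversed direction.

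Counts of genes past 2-fold were 1334 higher and 1190 lower at P14, 480 and 893 at 24 h, 929 and 986 at 48 h, 364 and 620 at 96 h, 745 and 434 from 24 to 48 h, and 693 and 843 from 48 to 96 h. With no filter on low values they were 2383 and 6477, 1941 and 4451, 2829 and 4901, 1766 and 4321, 3189 and 3362, and 3172 and 2900. No gene minimum gave 340 higher at 48 h, 178 higher from 24 to 48 h and 341 lower from 48 to 96 h. TMM scaling gave 806 higher and 1576 lower at P14, 592 higher at 48 h, 438 higher and 916 lower from 24 to 48 h, and 1070 higher and 515 lower from 48 to 96 h, so the split turned at P14 and in both comparisons between operated libraries. Median-of-ratios scaling gave 885 higher at P14. Subtraction gave 532 lower at P14, 1433 higher and 429 lower at 48 h, 1086 higher at 96 h and 1458 higher from 24 to 48 h, so the balance at 48 h and 96 h turned from mostly lower to mostly higher. Of the other values, those of single genes included, 29 moved and 31 did not under subtraction, 18 moved and 43 did not with equal weight, 13 moved and 48 did not with TMM, and 5 moved and 51 did not without barcodes carrying markers of other classes. The causes were not tested.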
